A study of Mus musculus with 18 samples.

Results

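The genes described here are 10 genes of iron handling and metal binding: the hepcidin genes Hamp and Hamp2, the transferrin receptors Tfrc and Tfr2, transferrin (Trf), the ferritin subunits Fth1 and Ftl1, ferroportin (Slc40a1), and the metallothioneins Mt1 and Mt2. They were chosen by name, as every row of the expression table that carries 1 of these 10 symbols, out of 54838 genes in all. The table holds bulk RNA-seq of mouse liver, 18 libraries in 6 groups of 3. Wild-type (WT) mice and global knockouts of the miR-181ab1 cluster (GKO), both on the C57BL/6 strain and labelled as 36 weeks old, gave normal livers without treatment. WT and GKO mice of the same strain and age that had received a single intraperitoneal dose of diethylnitrosamine (DEN, a liver carcinogen, 25 mg/kg on postnatal day 12) gave liver tumours and non-tumour livers. The knockout was in every tissue of the animal, so levels in its livers cannot be ascribed to hepatocytes. No label ties a tumour to a non-tumour liver of the same mouse, or tells whether the 3 tumours of a group came from 3 mice, so p-values measure the spread between these libraries. Reads recovered per library numbered 11925636 to 20751889, and values are in TPM, transcript counts scaled to a common library total, which correct reads for gene length and depth. The hairpin rows of the deleted miRNAs hold 0 reads in every library except 1 read of Mir181a-1 in GKO tumour 3, so these libraries do not check the knockout.

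Hepcidin is a peptide hormone made by hepatocytes that binds the iron exporter ferroportin and has it degraded, which holds iron inside cells. Its transcription is known to rise with iron through bone morphogenetic protein (BMP) and SMAD signalling and with inflammation through interleukin-6 and STAT3. Iron enters cells as transferrin bound to the transferrin receptor, is stored in ferritin, and leaves through ferroportin. Iron regulatory proteins bind hairpins called iron-responsive elements in the messenger RNAs of several of these genes and so block the translation of ferritin and ferroportin and steady the message of Tfrc when iron is low. Metallothioneins are small cysteine-rich proteins that bind zinc, copper and cadmium, and are known to be induced by zinc through the factor MTF1 and by glucocorticoids.

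The sequences through which several of these genes are known to be controlled are shown first. Iron-responsive elements were searched in the untranslated regions of 1 transcript per gene as a C, 5 bases, the loop CAGTGN with the last base not G, and 5 bases that pair with the first 5 (G with T allowed). They were found in 3 of the 10 genes in the 5′ untranslated region (Fth1, Ftl1 and Slc40a1) and, in 4 copies, in the 3′ untranslated region of Tfrc. In all protein-coding genes the same search found an element in 0.0785% of 20377 5′ untranslated regions and in 0.404% of 20554 3′ untranslated regions. The first 3 and, of Tfrc, the ones that start at bases 889 and 1333 of its 3′ region, are printed from GENCODE transcripts as DNA letters, with the loop in capitals (mm10 positions chr19:9982732-9982761, chr7:45459778-45459807, chr1:45925464-45925493, chr16:32631219-32631248 and chr16:32631663-32631692).
Fth1: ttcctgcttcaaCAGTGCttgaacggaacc
Ftl1: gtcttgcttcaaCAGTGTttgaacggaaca
Slc40a1: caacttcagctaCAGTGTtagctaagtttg
Tfrc, base 889: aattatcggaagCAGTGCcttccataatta
Tfrc, base 1333: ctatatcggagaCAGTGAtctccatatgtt

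The hepcidin promoters are shown because Hamp and Hamp2 differ so widely in level below. Whether their letters bear on these levels was not tested. Over 297 aligned bases the RefSeq promoters of the 2 genes (GRCm38.p6, 250 bases before to 50 after the start) were 92.9% identical. In the window below Hamp holds the letters GGCGCC, the core of the known BMP response element, 109 bases before its start, and Hamp2 has the substitutions G16A and T24C, counted from 1 at the 5′ end of the printed window. GGCGCC was also present in a promoter of Tfrc and in 11.9% of all 32851 promoters in the table, searched on both strands. The letters TTCTTGGAA, the known STAT element of the hepcidin promoter, were present in both genes and in 0.417% of all promoters. The capitals mark the BMP core and the bases of Hamp2 at the same place (chr7:30944121-30944150 and chr7:30924270-30924299, minus strand).
Hamp: tcccgcctgtttGGCGCCactattttcttg
Hamp2: tcccgcctgtttGGCACCactatcttcttg

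The metallothionein promoters are shown because Mt1 and Mt2 moved together. The metal response element core, searched as TGCACNC or TGCGCNC on both strands, occurred 3 times in the promoter of Mt1 and 4 times in that of Mt2, and at least once in 25.7% of all promoters. Among the other members with a promoter in the table it was found only in Tfrc, as 2 matches that overlap. A match of letters is a description and no measure of binding, and its part in the levels of these genes was not tested. The match of Mt1 that starts 23 bases before the start and that of Mt2 at 50 bases before are printed (chr8:94179055-94179084 and chr8:94172557-94172586, plus strand), with the core in capitals, which in Mt2 lies on the opposite strand.
Mt1: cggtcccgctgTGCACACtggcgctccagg
Mt2: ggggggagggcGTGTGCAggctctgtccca

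The deleted cluster encodes miR-181a and miR-181b, which share the seed at bases 2 to 8, in capitals (chr1:137966468-137966490 and chr1:137966650-137966673).
miR-181a-5p: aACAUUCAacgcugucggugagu
miR-181b-5p: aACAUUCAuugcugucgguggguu
The DNA letters TGAATGT, which pair with this seed, occurred in the 3′ untranslated region of 1 of the 10 genes, Slc40a1, and in 3085 of 20554 protein-coding genes. The match is in capitals (chr1:45908913-45908942, minus strand).
Slc40a1: tagttagataaTGAATGTtatccttattaa

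Among the 18 libraries WT non-tumour 2 stood apart in these genes, with the lowest Hamp (97.4 TPM), the lowest Mt1 (31.3 TPM), the highest Fth1 (9785 TPM) and the highest Tfrc (8.06 TPM). Its Cyp2e1, an enzyme of hepatocytes around the central vein, was 8049 TPM, in the range of the other livers without tumour (3056 to 9357 TPM) and above all 6 tumours (18.8 to 1446 TPM). Other genes placed it on either side. Slc39a4, a zinc importer, was 95.4 TPM, in the range of tumours (53.1 to 262 TPM) and above the other livers (8.31 to 29.1 TPM). S100a13 was 50.7 TPM, in the range of tumours (50.1 to 66.0 TPM) and below the other livers (83.1 to 142 TPM). Alb, albumin, was 38007 TPM, in the range of the other livers (22860 to 44073 TPM) and below all tumours (83554 TPM or more). Several differences in Hamp, Tfrc and Fth1 that rest on this library are given with and without it. Those of Hamp between WT non-tumour and WT normal livers, and between GKO and WT non-tumour livers, are given with it only.

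The libraries are bulk tissue, so fewer cells of a type and less RNA per cell cannot be told apart. Hepatocyte markers were abundant in every group, with the 10 of the list together at 134060 to 248170 TPM, and none of them was under 0.5 TPM throughout. Alb, albumin, rose in tumours over non-tumour livers by 1.70 (SE 0.19) on the log2 scale and Cyp2e1 fell by 4.84 (SE 0.80), with adjusted p = 0.00017 and 0.0017 (limma), and of the 10 markers 3 rose and 2 fell, beside 20.1% of all genes that passed in this comparison.

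All 10 genes passed the filter of a mean of 0.5 TPM in every comparison. Hamp (97.4 to 28675 TPM), Fth1 (3030 to 9785 TPM), Ftl1 (2124 to 8613 TPM) and Trf (943 to 7490 TPM) were among the abundant messages of the liver. Mt1 (31.3 to 3324 TPM) and Tfr2 (127 to 412 TPM) came next, and Slc40a1 (3.19 to 40.0 TPM), Hamp2 (0.84 to 169 TPM), Mt2 (0 to 27.4 TPM) and Tfrc (1.99 to 8.06 TPM) were low. The 10 together made up 0.968% to 4.46% of the summed TPM of a library.

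**Figure D1:**
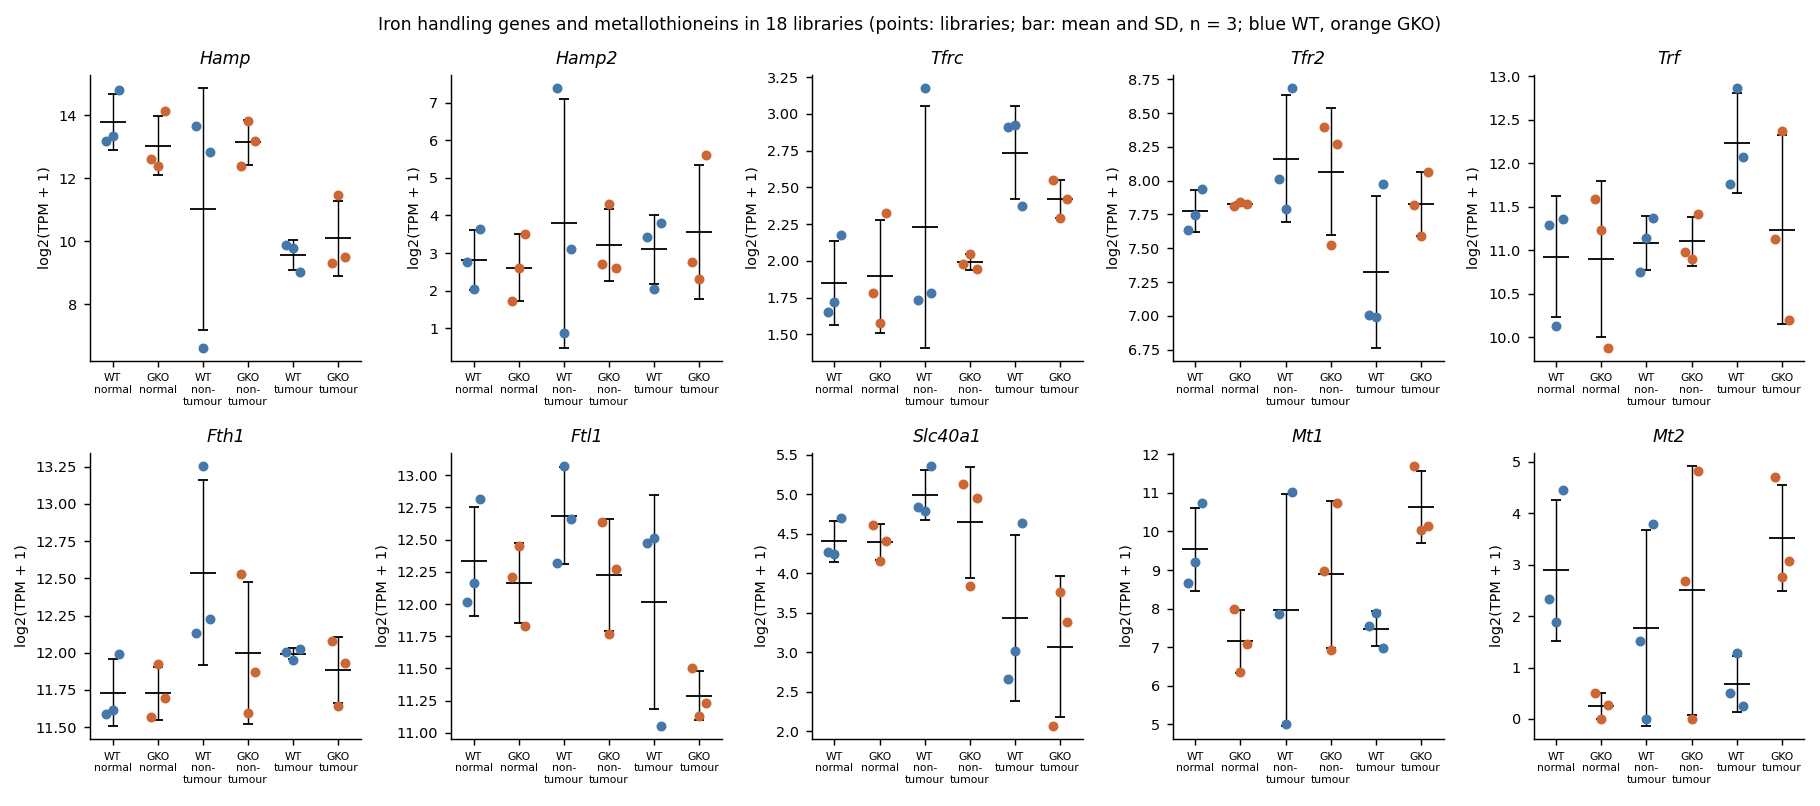
Levels of the 10 genes as log2(TPM + 1) on the y axis in the 6 groups on the x axis. Points are libraries, blue for WT and orange for GKO, and the bars give the mean and SD of 3. Hamp in the 6 tumours lies below all livers but WT non-tumour 2, and Mt1 is lowest in GKO among normal livers and highest in GKO among tumours.

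Hamp (chr7:30942368-30944032, minus strand) was much lower in tumours. In the 6 tumours it was 941, 872 and 518 TPM in WT and 631, 2820 and 729 TPM in GKO. In non-tumour livers it was 12759, 97.4 and 7291 TPM in WT and 5384, 14290 and 9339 TPM in GKO, and in normal livers 9307, 10436 and 28675 TPM in WT and 6240, 5319 and 17735 TPM in GKO. Every tumour lay below 11 of the 12 livers without tumour, the exception being WT non-tumour 2.

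In GKO mice Hamp fell by 3.04 (SE 0.62) on the log2(TPM + 1) scale in tumours against non-tumour livers, 8.20-fold, with adjusted p = 0.025. Hamp was the only 1 of the 10 genes to pass in this comparison, in which 11.7% of all genes passed and 38.3% did not overlap between the groups; 4 of the 10 genes (Hamp, Tfrc, Ftl1 and Slc40a1) did not overlap. The median difference of all genes was itself 0.20 in this comparison. The adjusted p rose to between 0.060 and 0.095 when GKO non-tumour 2 or 3 or GKO tumour 1 or 3 was left out, and was 0.082 without the filter on low values and 0.10 with all 18 libraries in 1 fit.

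In WT mice the difference was -1.47 (SE 1.71) with adjusted p = 0.69, and without WT non-tumour 2 it was -3.68 with adjusted p = 0.012. In WT 2 of the 10 genes had an unadjusted limma p under 0.05, beside 2791 of all 14003 genes. None of the 10 passed, where 4.23% of all genes did. A linear model of the recovered reads (voom) called 0 as well. Over both genotypes Hamp differed by -2.26 (SE 0.99, adjusted p = 0.13), and by -3.32 without WT non-tumour 2 (adjusted p = 0.00037). The groups then held 6 tumours and 5 non-tumour livers.

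Hamp2 (chr7:30922372-30924681, minus strand), the second hepcidin gene of the mouse, was far lower than Hamp in every library. It was 168.7 TPM in WT non-tumour 1 and 47.6 TPM in GKO tumour 3, and 0.84 to 18.8 TPM in the other 16 libraries. WT non-tumour 1 was also the highest of its group in Hamp, and GKO tumour 3 was not. The ranges of neighbouring groups overlapped throughout. The ratio of Hamp to Hamp2 had a median of 860 over the 18 libraries and ranged from 15.3 in GKO tumour 3 to 3380 in WT normal 2. In normal livers it was 1041 to 3380 and in tumours 15.3 to 708, without overlap. In non-tumour livers it was 75.6 to 1829 and overlapped both, with WT non-tumour 1 and 2 (75.6 and 116) in the range of the tumours. The 2 genes are close copies, and some reads of the abundant gene could have been counted on the other.

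Genes known to control hepcidin did not pass the test. Of 18 measured genes of the BMP and SMAD list, 0 passed by limma in tumours against non-tumour livers of both genotypes. Of all genes 20.1% passed. Of the 18, 2 had an unadjusted p under 0.05, beside 4944 of all 14106 genes. The list's median log2 difference was 0.10, beside 0.08 for all genes. Bmp6, the BMP that endothelial cells of the liver make in response to iron, was 3.19 TPM on average in tumours and 3.90 TPM in non-tumour livers, a mean carried by 14.4 TPM in WT non-tumour 2. The other 5 non-tumour livers held 1.27 to 2.19 TPM of Bmp6 and the tumours 2.50 to 3.87 TPM. Hfe2, the symbol in the table for the BMP co-receptor hemojuvelin, was likewise highest in WT non-tumour 2, at 207 TPM, so in that library the lowest Hamp stood beside the highest Bmp6 and Hfe2.

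Tmprss6, the protease that cuts hemojuvelin, was 310 and 233 TPM on average (log2 difference 0.41, SE 0.22, adjusted p = 0.21). Id1, a general target of BMP signalling, was 99.9 and 44.9 TPM (1.19, SE 0.53, adjusted p = 0.13). The mean differences of Id1 and Hamp thus lay in opposite directions, and neither passed with all libraries. Single libraries went the other way. WT non-tumour 2, with the lowest Hamp, also held the lowest Id1 (20.0 TPM). GKO tumour 2, with the highest Hamp of the tumours, held the highest Id1 (195 TPM). Smad7, which inhibits the pathway, was 4.05 and 6.66 TPM (-0.53, SE 0.30, adjusted p = 0.23). Bmp2, a second BMP ligand, was 4.08 and 6.22 TPM (adjusted p = 0.44), and Hfe, mutated in hereditary haemochromatosis, 26.8 and 23.6 TPM (adjusted p = 0.53).

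Of 17 acute-phase genes known to be induced through interleukin-6 and STAT3, 3 rose and 1 fell in tumours over both genotypes, a share of 23.5% beside 20.1% of all genes. Lcn2, which binds iron-loaded siderophores, rose by 4.05 (SE 0.68, adjusted p = 0.0020), Il1rn by 3.12 (SE 0.29, adjusted p = 4.1e-05) and Apcs by 2.14 (SE 0.66, adjusted p = 0.039), and Saa3 fell by 2.29 (SE 0.63, adjusted p = 0.024). Lcn2 was also the 1 gene of these lists that passed between GKO and WT tumours, at 209, 176 and 168 TPM in GKO against 869, 906 and 971 TPM in WT (-2.31, SE 0.20, adjusted p = 0.043). No gene passed in this comparison, Lcn2 included, with the replicate block, with a pseudocount of 0.1, without the filter, with median centring, with voom, or without WT tumour 1, WT tumour 2 or GKO tumour 3.

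Slc40a1 (chr1:45908068-45926523, minus strand), ferroportin, was the 1 member that passed over both genotypes. It was 5.31, 7.12 and 23.8 TPM in the tumours of WT mice, and 3.19, 12.6 and 9.38 TPM in GKO tumours. It was 27.5, 26.6 and 40.0 TPM in WT non-tumour livers and 34.0, 13.3 and 30.1 TPM in GKO non-tumour livers, and 16.8 to 25.0 TPM in the 6 normal livers. Of the tumours, 5 lay below every liver, and WT tumour 3 lay within the range of the normal livers.

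Slc40a1 fell by 1.57 (SE 0.38) on the log2 scale, 2.96-fold, with adjusted p = 0.014 (limma) and p = 0.0043 in the exact 2-sided permutation test of 6 against 6, whose smallest p is 0.0022. It was called under all 21 alternatives tried, with differences of -1.86 to -1.34. Across all genes 20.1% passed in this comparison and 7.86% did not overlap, and of the 10 genes 1 passed and 0 did not overlap. Within each genotype the difference was of the same size (-1.56, SE 0.51, adjusted p = 0.16 in WT, and -1.57, SE 0.51, adjusted p = 0.086 in GKO), without overlap between the groups. Without WT tumour 3 the WT difference was -2.15 with adjusted p = 0.0087. In WT mice 24.8% of all genes did not overlap, and of the 10 it was Slc40a1, Trf and Fth1.

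Liver macrophages are known to be rich in ferroportin, and some of their markers were also lower in tumours. Of 12 Kupffer cell and macrophage markers 4 fell in tumours over both genotypes and 0 rose (Marco, Clec4f, Vsig4 and Timd4, by 1.62 to 2.97 on the log2 scale), and the list's median difference was -0.86 beside 0.08 for all genes. Their summed level was 215 to 608 TPM in tumours, 290 to 1433 TPM in non-tumour livers and 165 to 479 TPM in normal livers, and none was under 0.5 TPM throughout. The summed markers of normal livers and tumours thus overlapped, while 5 of the 6 tumours lay below all normal livers in Slc40a1. The part of macrophages in the difference of Slc40a1 between tumours and livers was not tested.

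In WT mice Slc40a1 was higher in non-tumour than in normal livers without overlap (31.4 ± 7.5 against 20.4 ± 4.0 TPM, SD, n = 3), by 0.59 (SE 0.24, adjusted p = 0.19). Fth1 was higher by 0.81 (SE 0.34, adjusted p = 0.20), also without overlap, and by 0.448 without WT non-tumour 2 (adjusted p = 0.30). Hamp differed by -2.75 (SE 1.72, adjusted p = 0.33 by limma), with WT non-tumour 2 at 97.4 TPM in the group. The median difference of all genes was 0.33 in this comparison. Over the alternatives the difference of Slc40a1 was 0.21 to 0.74 and that of Fth1 0.43 to 1.01. Of the 12 Kupffer cell and macrophage markers 11 were also higher here, with a median difference of 1.15 and 0 passing by limma. The part of macrophages in the difference of Slc40a1 was not tested. No member passed here, beside 0.00744% of all genes, and 33.9% of all genes did not overlap. An unadjusted limma p under 0.05 was held by 2 members and by 3282 of 13440 genes. Between GKO non-tumour and GKO normal livers no member passed, had an unadjusted limma p under 0.05 or was without overlap. Of all genes these were 0%, 703 of 13530 and 8.73%.

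Tfrc (chr16:32608920-32632794, plus strand), the receptor of most cells, was 6.51, 6.59 and 4.18 TPM in the tumours of WT mice, and 4.86, 3.89 and 4.35 TPM in GKO tumours. It was 2.32, 8.06 and 2.43 TPM in WT non-tumour livers, 2.93, 3.14 and 2.85 TPM in GKO non-tumour livers and 1.99 to 4.01 TPM in normal livers. Tfrc in tumours was above all non-tumour livers but WT non-tumour 2. The difference over both genotypes was 0.47 (SE 0.23, adjusted p = 0.17), and 0.68 without that library (adjusted p = 0.0095). In GKO mice it was 0.43 (SE 0.18, adjusted p = 0.15), without overlap.

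Tfr2 (chr5:137569840-137587481, plus strand), the hepatocyte's iron sensor upstream of hepcidin, was 128, 127 and 250.5 TPM in the tumours of WT mice, and 225, 192 and 267 TPM in GKO tumours. Non-tumour livers held 257, 220 and 412 TPM in WT and 336, 183 and 308 TPM in GKO, and normal livers 198 to 245 TPM. The groups overlapped, and the difference over both genotypes was -0.54 (SE 0.26, adjusted p = 0.15). Tfr2 exceeded Tfrc in every library, by a ratio of TPM of 19.2 to 169. The ratio was 19.6, 19.2 and 60.0 in the tumours of WT mice, and 46.2 to 61.4 in GKO tumours, and had a median of 91.9 to 111 in the groups of livers without tumour. Single livers overlapped the tumours, at 27.3 in WT non-tumour 2, 56.5 in GKO normal 3 and 58.5 in GKO non-tumour 2.

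Trf (chr9:103204001-103230444, minus strand), the iron carrier that hepatocytes secrete, was 3468, 7490 and 4319 TPM in WT tumours, above all 12 livers without tumour (943 to 3073 TPM). In GKO tumours it was 2251, 5296 and 1179 TPM and overlapped them. In WT mice Trf was higher in tumours by 1.15 (SE 0.36, adjusted p = 0.14), without overlap, and over both genotypes by 0.64 (SE 0.36, adjusted p = 0.22, and 0.93 with adjusted p = 0.045 without GKO tumour 3). Of its 3320 exonic bases 2108 lie in a second gene model on the same strand, so its level depends on how shared reads were counted.

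Fth1 (chr19:9980598-9985098, plus strand), the heavy chain that oxidises iron, was 4110, 3956 and 4172 TPM in the tumours of WT mice, and 4321, 3194 and 3904 TPM in GKO tumours. These lay within the range of GKO non-tumour livers (5908, 3095 and 3747 TPM) and below WT non-tumour livers (4488, 9785 and 4786 TPM). The WT difference was -0.54 (SE 0.35, adjusted p = 0.45), without overlap, and -0.185 without WT non-tumour 2 (adjusted p = 0.70).

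Ftl1 (chr7:45457944-45459884, minus strand), the light chain that helps form the iron core, was 2902, 2244 and 2403 TPM in GKO tumours and 2124 TPM in WT tumour 3. It was 5689 and 5853 TPM in WT tumours 1 and 2 and 3482 to 8613 TPM in the 12 livers without tumour. Thus 4 of the 6 tumours lay below every liver. Over both genotypes the difference was -0.80 (SE 0.27, adjusted p = 0.056, exact permutation p = 0.039), and in GKO mice -0.93 (SE 0.29, adjusted p = 0.077), without overlap. Leaving out WT tumour 1 or 2 gave adjusted p = 0.046 and 0.041 over both genotypes. Pseudogene copies of Ftl1 held 1.86% to 4.34% as many TPM as the gene, and 464 of its 1340 exonic bases lie in other gene models.

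The ratio of Fth1 to Ftl1 within a library was 1.42 to 1.63 in GKO tumours and 1.96 in WT tumour 3. It was 0.72 and 0.68 in WT tumours 1 and 2, 0.74 to 1.14 in non-tumour livers and 0.56 to 0.91 in normal livers. The 4 tumours with low Ftl1 thus stood above all other libraries in this ratio, a split noticed in these values and not tested.

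**Figure D2:**
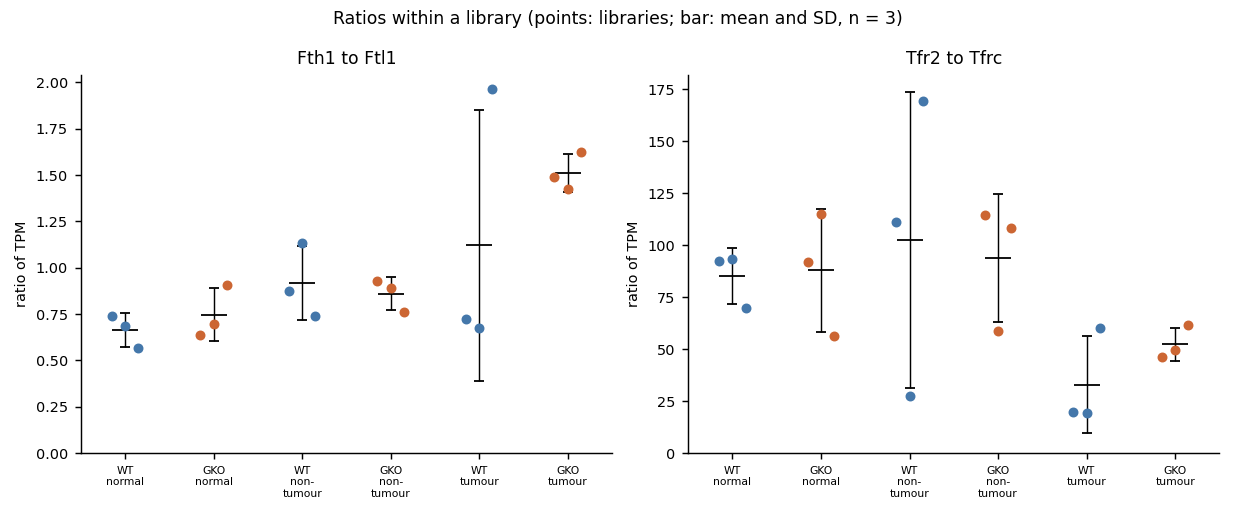
Ratio of Fth1 to Ftl1 (left) and of Tfr2 to Tfrc (right) within each library, as a ratio of TPM on the y axis starting at 0, in the 6 groups on the x axis. Points are libraries and bars the mean and SD of 3. The 3 GKO tumours and WT tumour 3 lie above 1.4 on the left, and all others are at 1.14 or below.

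Mt1 (chr8:94179082-94180327, plus strand) did not overlap between the genotypes in tumours or in normal livers. In tumours it was 3324, 1045 and 1131 TPM in GKO and 187, 236 and 126 TPM in WT. In normal livers the order was the other way round, with 255, 81.7 and 135 TPM in GKO and 402, 588 and 1716 TPM in WT. In non-tumour livers both genotypes spread widely and overlapped, at 506, 122 and 1708 TPM in GKO and 231, 31.3 and 2085 TPM in WT.

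Mt2 (chr8:94172664-94173568, plus strand) repeated this pattern at a low count. It had 136, 28 and 36 reads in GKO tumours and 2, 7 and 1 in WT tumours. In normal livers it had 2, 0 and 1 reads in GKO and 16, 14 and 129 in WT. Of its 588 exonic bases 432 lie in an antisense gene model, and the strand setting of the counting is not given in the sources used here, so its level may be understated. A count of 0 reads allows up to 3.

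**Figure D3:**
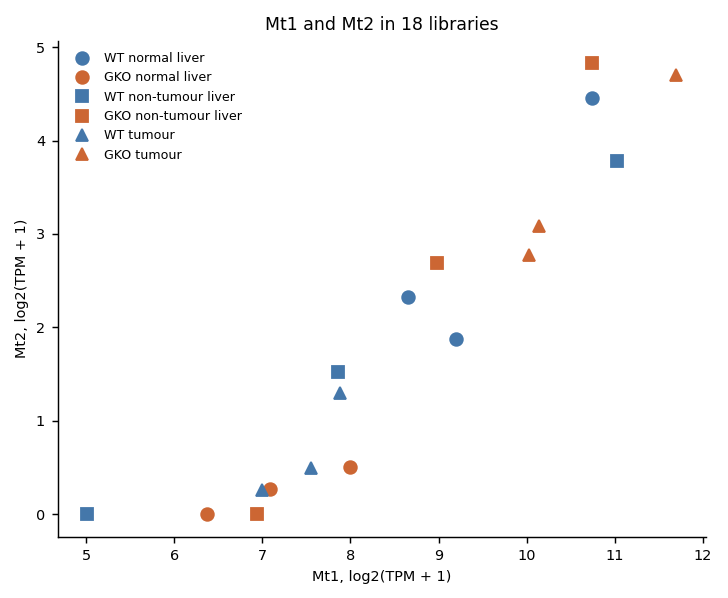
Mt2 on the y axis against Mt1 on the x axis, both as log2(TPM + 1), with 1 point per library. Colour gives the genotype (blue WT, orange GKO) and shape the tissue. The 2 genes rise together over all tissues. GKO tumours sit in the upper part, and WT tumours and GKO normal livers in the lower part. WT normal 3, WT non-tumour 3 and GKO non-tumour 3 lie above GKO tumours 2 and 3 in both genes. WT non-tumour 2 is the lowest in Mt1.

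Between GKO and WT tumours Mt1 was higher by 3.15 (SE 0.49), 8.85-fold, with unadjusted p = 0.00036 and adjusted p = 0.24 by limma, and Mt2 was higher by 2.84 (SE 0.54, adjusted p = 0.29), with values of 2.24 to 4.10 over the alternatives (4.08 with a pseudocount of 0.1). Neither passed over all genes. The limma test called 0 of the 10 genes and 0.0215% of all genes, and 14.7% of all genes did not overlap. Of the 10 genes, 2 had an unadjusted p under 0.05 and 2 did not overlap, Mt1 and Mt2 in both counts. An unadjusted p under 0.05 was held by 1238 of all 13964 genes. Mt1 differed by 2.61 to 3.44 over the 15 alternatives, with adjusted p of 0.076 to 0.71. The exact permutation test of 3 against 3 cannot go below p = 0.1, and both genes reached that value.

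Between GKO and WT normal livers the log2 difference was -2.38 (SE 0.59, adjusted p = 0.94) for Mt1 and -2.63 (SE 0.61, adjusted p = 0.89) for Mt2, whose reads are few. With a pseudocount of 0.1 the value of Mt2 was -4.64, and without WT normal 3 it was -1.85. Here limma called 0 members and 0% of all genes. An unadjusted p under 0.05 was held by 2 members and by 519 of 13099 genes. Of the 10 genes 2 did not overlap, beside 7.95% of all genes. Between GKO and WT non-tumour livers limma called 0 members and 0% of all genes. An unadjusted p under 0.05 was held by 0 members and by 799 of 13768 genes, and 0 members did not overlap beside 13.2% of all genes.

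Whether the genotype difference of tumours differed from that of normal livers was tested after the opposite directions had been seen. The interaction over 12 libraries (6 tumours and 6 normal livers), fitted across all genes with limma, was 5.53 (SE 0.85) on the log2 scale for Mt1 and 5.47 (SE 0.90) for Mt2, with adjusted p = 0.063 and 0.096. Neither passed, except that both did without WT tumour 3 or without GKO tumour 2 (adjusted p of 0.024 to 0.048). The value of Mt2 was 8.72 with a pseudocount of 0.1 and 8.86 with voom. Of the members 2 had an unadjusted p under 0.05, beside 741 of 13867 genes, and 0.0144% of all genes passed. Against non-tumour livers the interaction called 0 members by limma and 0.0142% of all genes. An unadjusted p under 0.05 was held by 0 members and by 1483 of 14106 genes.

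**Figure D4:**
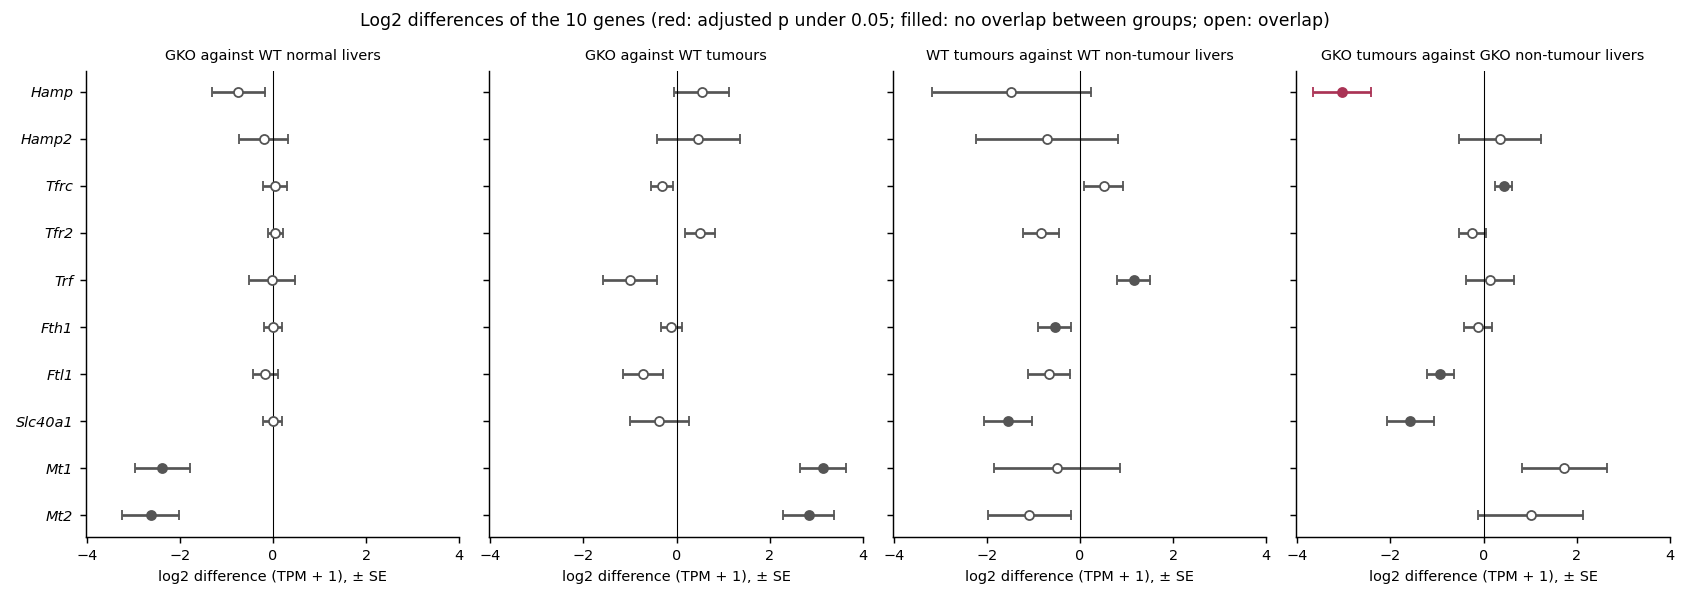
Log2 differences with their SE on the x axis for the 10 genes on the y axis in 4 comparisons. Red marks an adjusted p under 0.05, filled points groups without overlap and open points groups that overlap. Mt1 and Mt2 lie to the left in normal livers and to the right in tumours, and Hamp in GKO mice is the only red point.

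For the 8 other genes no difference between genotypes was detectable. In tumours their log2 differences between GKO and WT ran from -0.999 (Trf) to 0.54 (Hamp), with the lowest adjusted p at 0.65. In normal livers they ran from -0.75 (Hamp) to 0.05 (Tfr2). In non-tumour livers they ran from -0.59 (Hamp2, SE 1.52) to 2.10 (Hamp, SE 1.72), with the lowest adjusted p at 0.64 (limma). The WT group there holds WT non-tumour 2, with Hamp at 97.4 TPM, and the difference is given with it only. With 3 libraries a group these intervals are wide for Hamp, Hamp2 and Trf, whose SE between GKO and WT tumours were 0.59, 0.90 and 0.57.

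Mt1 and Mt2 rose and fell together across libraries. Over the 6 tumours Pearson's r of log2(TPM + 1) was 0.993 (Spearman's rho 1.0, exact permutation p = 0.0028 for both, adjusted p = 0.014 over 5 pairs). Over the 12 livers r was 0.931 and rho 0.937 (permutation p = 2e-05, adjusted p = 0.0001 for both). Leaving out the 2 libraries farthest from the median of Mt1 gave r = 0.983 and 0.963. The genes lie side by side on the chromosome.

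Fth1 and Ftl1 were related in the 12 livers (r = 0.830, permutation p = 0.0003, adjusted p = 0.00075, rho 0.832, permutation p = 0.0012, adjusted p = 0.0030), and r stayed at 0.752 without the 2 farthest libraries. In the 6 tumours r was 0.286 (exact permutation p = 0.72, adjusted p = 0.72) and rho 0.086 (exact permutation p = 0.92, adjusted p = 0.92). Whether the relations differ was not tested. The other 3 pairs (Hamp with Hamp2, Hamp with Tfr2, Tfrc with Slc40a1) gave adjusted permutation p of 0.15 to 0.91 by Pearson's r within tumours and within livers. By Spearman's rho, Hamp and Hamp2 were related in the 12 livers (0.706, permutation p = 0.0126, adjusted p = 0.0209), beside r = 0.540.

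The genes most like Mt1 over the 18 libraries, out of 13890, were Gm16845 (r = 0.742), Ciart (0.731) and Per1 (0.727). Without WT non-tumour 2 these were 0.678, 0.712 and 0.645. Ciart and Per1 are parts of the circadian clock, and Per1 is also induced by glucocorticoids. Per1 was 17.9, 9.53 and 19.8 TPM in GKO tumours and 6.79, 7.20 and 4.69 TPM in WT tumours, without overlap, and Ciart 19.5, 5.25 and 14.4 TPM against 0.96, 1.78 and 2.05 TPM. Per1 and Ciart in GKO normal livers overlapped those of WT normal livers. The labels give no time of day at collection, and the part of that time in these levels was not tested. The summed cholangiocyte markers were 48.9 to 973 TPM in GKO tumours and 32.7 to 59.4 TPM in WT tumours. The stellate cell markers were 99.8 to 193 and 54.5 to 98.8 TPM. By limma 0 genes of either list passed, beside 3 of all 13964 genes. An unadjusted p under 0.05 was held by 3 of 6 cholangiocyte and 4 of 10 stellate cell genes, beside 1238 of all genes. The part of these cells in the levels of Mt1 was not tested. Of 12 glucocorticoid-induced genes, which include Per1, 0 passed between GKO and WT tumours by limma. An unadjusted p under 0.05 was held by 1 of the 12, beside 1238 of all 13964 genes.

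The genes most like Hamp were S100a13 (r = 0.900), Gem (0.895) and Mup3 (0.892), a major urinary protein made by hepatocytes. Mup3 was 520 TPM in WT non-tumour 2 and 9821 to 22121 TPM in the other livers without tumour, beside 201 to 2788 TPM in tumours, so it repeated the place of that library. Slc40a1 was most like Gm27216 (0.936), Dpp4 (0.919), a cell-surface peptidase, and Aqp9 (0.914), a glycerol channel of hepatocytes. Tfrc was most like Arhgap18 (0.921), Amn (0.902) and Krt18 (0.894), and Tfr2 most like Tmem250-ps (0.894), Slc10a1 (0.892), the bile salt importer, and Ppm1l (0.892). These were picked as the highest of many values and follow the tissues, so they carry no test.

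The zinc and metallothionein control genes differed in part between tissues. Of 11 measured, 4 rose and 1 fell in tumours over both genotypes, 45.5% of the list beside 20.1% of all genes. Slc39a4, an importer of zinc, rose by 2.37 (SE 0.39, adjusted p = 0.0019), from 32.9 to 164 TPM, and Slc39a5 fell by 1.27 (SE 0.33, adjusted p = 0.020). Mtf1, the zinc sensor of metallothionein promoters, was 3.35 and 3.25 TPM (adjusted p = 0.88), and Slc30a10, an exporter of manganese, 3.62 and 7.94 TPM (adjusted p = 0.074). Between GKO and WT tumours 0 of 12 passed by limma, beside 3 of all 13964 genes. An unadjusted p under 0.05 was held by 1 of the 12, beside 1238 of all genes.

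Of 18 genes of haem synthesis and salvage, 9 fell and 0 rose in tumours over both genotypes, where 20.1% of all genes passed. The list's median difference was -0.61 beside 0.08 for all genes, and 5 of the 18, none of which passed, had higher values in tumours. Within WT mice 1 of the 18 passed and within GKO mice 4, all lower in tumours. Alad, the second enzyme of haem synthesis, was 115 to 171 TPM in all 6 tumours and 257 to 319 TPM in non-tumour livers, and fell by 1.09 (SE 0.14, adjusted p = 0.00038). Alas2, the erythroid form of the first enzyme, fell by 1.57 (SE 0.32, adjusted p = 0.0053), Abcg2, a transporter that can carry porphyrins out of the cell, by 1.30 (SE 0.30, adjusted p = 0.011) and Cpox, a later enzyme of the pathway, by 1.26 (SE 0.33, adjusted p = 0.019). The other 5 were Alas1, Urod, Blvrb, Cd163 and Lrp1.

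Erythroid markers, of which 9 were found and 3 (Slc4a1, Epb42 and Hemgn) were under 0.5 TPM throughout, summed to 344 to 1099 TPM in tumours and 379 to 828 TPM in non-tumour livers. Hmox1, which breaks haem down, was 14.4 and 33.3 TPM (log2 difference -0.83, SE 0.43, adjusted p = 0.19).

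**Figure D5:**
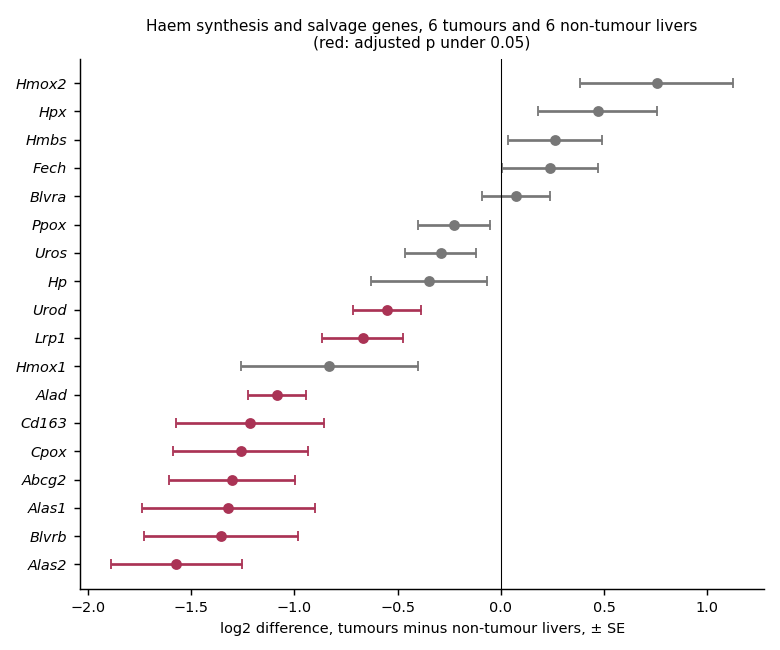
Log2 differences with their SE on the x axis for the 18 genes of haem synthesis and salvage on the y axis, 6 tumours minus 6 non-tumour livers. Red marks an adjusted p under 0.05. The 9 red genes all lie below 0.

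Of 13 iron and copper-oxidase transport genes, 2 rose and 0 fell in tumours over both genotypes, a share of 15.4% beside 20.1% of all genes. Cp, ceruloplasmin, the copper oxidase that loads iron onto transferrin, was 400, 415 and 478 TPM in the tumours of WT mice, and 268, 489 and 540 TPM in GKO tumours, above all 12 livers without tumour (119 to 265 TPM). It rose by 1.14 (SE 0.21, adjusted p = 0.0028). Steap4, an iron and copper reductase, rose by 0.99 (SE 0.30, adjusted p = 0.037). Slc39a14, an importer of iron not bound to transferrin, was 36.4, 21.9 and 35.7 TPM in GKO tumours and 18.2, 18.2 and 16.8 TPM in WT tumours (0.75, SE 0.25, adjusted p = 0.50), and rose in GKO tumours over GKO non-tumour livers by 1.15 (SE 0.28, adjusted p = 0.040). Slc11a2, the other importer, was 7.46 and 7.50 TPM in tumours and non-tumour livers.

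Of 11 hypoxia-induced genes 0 passed by limma in tumours against non-tumour livers over both genotypes, beside 20.1% of all genes. An unadjusted p under 0.05 was held by 2 of the 11, beside 4944 of all 14106 genes.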

How the data were processed

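RNA-seq was analysed from 18 mouse liver libraries. The authors aligned reads with STAR 2.7.3a to mm10, counted them with featureCounts 2.0.0 and deposited TPM per gene, with no replicates pooled. The annotation and strand setting are not given in the sources used here. Multiplying TPM by GENCODE M21 exonic length gave whole reads (within 0.02) for 97.99% to 98.67% of values up to 30 reads, so reads were recovered. Intervals are not given, and floors cover counting error only.

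log2(TPM + 1) was fitted with limma 3.58.1 in R 4.3.3 (eBayes with trend) on genes that averaged 0.5 TPM or more over the libraries compared, with Benjamini-Hochberg adjustment over all genes and a threshold of 0.05. Fold changes are on that scale and understate low genes. Single values had exact 2-sided permutation tests, and correlations permutation tests with 100000 resamples (exact with 6 libraries). Scripts were tested on simulated data. Sequences are from RefSeq tables (GRCm38.p6, 8 of the 10 genes have a promoter) and GENCODE M21.

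The members, lists and rule for named genes (members, known regulators, up to 4 called genes per list and comparison, 3 most alike genes) were chosen with earlier results of these data known. Deviations from the group mean of same-numbered GKO and WT tumours correlated at r of 0.101, 0.12 and 0.197. Of these 6 libraries 5 were closest to their own number. Over all comparisons such r ran from -0.315 to 0.249, and they were not tested. The labels name no shared litter or day. The main fits, and the values printed for GKO against WT tumours, were unpaired. Pairing by number was tried only as an alternative, the replicate block. It changed no call among the 10 genes and took the calls over all genes from 3 to 0. Alternatives were other pseudocounts, filters, scalings and fits, voom on recovered reads, a replicate block, and each library left out. The result of the iron sensing list is not reported here.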

Additional observations from a re-analysis of the deposited data

Results flagged for a closer look

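On the log2 scale 4 values stood far from the rest of their 6 libraries, with a gap to the nearest library above Dixon's 95% critical share of the range. Chance gives such a value in about 1 of 20 groups, and 20 groups were looked at. In non-tumour livers these were Hamp at 97.4 TPM and Tfrc at 8.06 TPM, both in WT non-tumour 2. In tumours they were Hamp at 2820 TPM and Fth1 at 3194 TPM, both in GKO tumour 2.

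The genotype difference of the metallothioneins took opposite directions in 2 tissues, with every GKO library above every WT library in tumours and below in normal livers. The log2 difference of Mt1 was 3.15 in tumours and -2.38 in normal livers, and that of Mt2 was 2.84 and -2.63. The interaction, tested after this was seen, had adjusted p = 0.063 for Mt1 and 0.096 for Mt2 (limma).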

How the results depend on the processing

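The 22 differences of single members singled out in the text kept their direction in all 375 refits, which changed 1 setting or left out 1 library. In 345 of them the call was as reported, in 24 a gene passed that had not, and in 6 Hamp in GKO mice no longer passed (no filter, all 18 libraries in 1 fit, and 4 libraries left out in turn). The cause was not tested. The 22 were singled out because they were called, did not overlap between the groups, or passed in a refit. Where groups do not overlap, leaving out a library cannot reverse the direction. The constant direction was thus largely set by this choice and is no measure of how firm the differences are.

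Of the 10 genes, the number called in GKO tumours against GKO non-tumour livers was 0 without the filter on low values, 3 with median centring, 2 with quantile normalization, 3 with voom on recovered reads, and 0 to 1 with a library left out. Over both genotypes it was 2 with a minimum of 5 TPM, with median centring, with all 18 libraries in 1 fit and without the trend, 3 with voom, and 1 to 3 with a library left out (3 without WT non-tumour 2). In WT it was 1 with all 18 libraries and 0 to 1 with a library left out. In the interaction of tumours and normal livers it was 0 to 2, the 2 being Mt1 and Mt2 without WT tumour 3 or without GKO tumour 2. All other comparisons gave 0 in every refit. The pair Tfrc and Slc40a1 had r = -0.501 over 18 libraries and passed without the 2 farthest libraries (r = -0.668), and Fth1 and Ftl1 passed in the 12 livers (r = 0.83).

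A replicate block changed no member's call. It gave 1 called gene in GKO mice, 1 over both genotypes and 0 elsewhere. Among all genes it gave 361 calls in place of 592 in WT tumours against non-tumour livers, where the deviations of same-numbered libraries correlated at -0.008 to 0.249 and 2 of 6 libraries were closest to their own number; in GKO mice all 6 were, at r of 0.041 to 0.124. Among all genes the calls between GKO and WT tumours went from 3 to 0 with the block, and over the other alternatives from 0 to 147. Depth limits Mt2 and Hamp2 most, with 0 to 136 and 4 to 808 reads.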
